A study of Mus musculus with 8 samples.

Results

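The 10 genes described here encode the ligands and receptors at the core of the vascular endothelial growth factor (VEGF) and angiopoietin pathways. They are the ligands Vegfa, Vegfc and Pgf, the VEGF receptors Flt1, Kdr and Flt4, the angiopoietins Angpt1 and Angpt2, and the TIE receptors Tek and Tie1. They were chosen by name, with earlier results of these data known, from the 54752 genes counted in each library, and all 10 passed the filter on low counts that 17136 genes passed. RNA from the right cerebral cortex of 8 adult male wild-type C57BL/6 mice (C57BL/6 J in the study's methods) was sequenced 3 weeks after surgery, with 1 mouse per library. In 4 mice, bilateral carotid artery stenosis (BCAS) had been made by winding a microcoil around each common carotid artery, with the narrower coil on the right, so that the cortex sampled lay on the side of the tighter stenosis. The 4 sham mice had the same operation without coils. Only mice that survived the operation could be sampled. Cortex holds many cell types, and each count is a sum over all of them.

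VEGF-A is the main growth signal for blood vessels and acts mostly through KDR (VEGFR2) on endothelial cells. FLT1 (VEGFR1) binds VEGF-A and placental growth factor tightly and limits how much ligand reaches KDR, and FLT4 (VEGFR3) answers VEGF-C, best known from lymphatic vessels and from sprouting tips. Angiopoietin-1, made largely by cells around the vessel, activates the receptor TEK (TIE2) and keeps vessels stable, whereas angiopoietin-2, stored and released by endothelial cells, can oppose it and loosen the vessel. TIE1 is a TEK relative with no well-established ligand of its own that modulates TEK signaling.

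The members of each family are related in sequence, and a stretch of the coding sequence around the longest run of identical bases is shown for the 2 angiopoietins, the genes on which the results turn. The stretches are read 5′ to 3′ from the GENCODE M21 transcripts, and the capitals mark the 17 bases that both genes share.
Angpt1, coding bases 1435 to 1494: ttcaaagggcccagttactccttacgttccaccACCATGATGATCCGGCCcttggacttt
Angpt2, coding bases 1429 to 1488: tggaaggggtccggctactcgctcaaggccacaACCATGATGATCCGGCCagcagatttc
The stretches are the last 60 bases of each coding sequence before the stop codon, in the part that encodes the receptor-binding fibrinogen-like domain, and no longer identical run was found between the coding sequences of 498 and 496 codons. Over the aligned coding bases 64.1% were identical. The TIE receptors shared at most 18 bases, in a stretch shown for the same reason, that is, to let a reader see how far the reads of relatives can be told apart.
Tek, coding bases 2860 to 2919: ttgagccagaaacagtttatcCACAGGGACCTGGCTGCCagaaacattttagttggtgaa
Tie1, coding bases 2896 to 2955: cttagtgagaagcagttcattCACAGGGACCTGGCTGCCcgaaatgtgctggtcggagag
Flt1 and Kdr shared at most 20 bases, Flt1 and Flt4 19, and Kdr and Flt4 14. Angpt1 also shares 14.2% of its exon bases with Gm17473, a gene on the opposite strand, and the counts were made with no strand option, so reads of the pair cannot be told apart there. The other 9 members share no exon base with another annotated gene.

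Each library held 16759364 to 21794435 counts on genes. Levels are given as CPM, the count scaled to a common total over the tested genes, with library sizes scaled by the trimmed mean of M-values (TMM), and 3 counts correspond to 0.132 to 0.187 CPM. A gene is said to be called, or to have risen or fallen, where the adjusted p of edgeR's quasi-likelihood test, Benjamini-Hochberg over the 17136 tested genes, was under 0.05 and the log2 fold change, BCAS over sham, was above 1 in size. By that rule 11.0% of the tested genes rose and 1.28% fell. Cell type markers also differed between the groups. All 12 microglia and macrophage markers rose, with the smallest p-values for Tyrobp (log2 fold change 4.32, edgeR adjusted p = 0.00147) and Trem2 (4.34, edgeR adjusted p = 0.00147), their summed level being 319.2 to 384.5 CPM in sham and 1568 to 6176 CPM in BCAS, and the sum of 8 neuronal markers was 9648 to 11230 CPM in sham and 3850 to 8260 CPM in BCAS, 1 of the 8 being called lower, the synaptic vesicle release gene Snap25 (log2 fold change -1.07, edgeR adjusted p = 0.0172). By adjusted p alone 7 of the 8 neuronal markers were lower, beside 12.8% of all tested genes. The brain origin of the samples was plain from these neuronal markers, and all 16 endothelial markers were detected, with at least 101 counts in every library.

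In this comparison the angiopoietins Angpt1 and Angpt2 rose in BCAS cortex, the 3 VEGF ligands and all 5 receptors did not pass the threshold, and no member fell. That is 2 of 10 members called higher, or 20%, beside the background of 11.0%, and by adjusted p alone it was the same 2 of 10, beside 32.0% of all tested genes in either direction. These 2 were also the only members with no overlap between the groups, beside 34.8% of all tested genes in either direction and 18.5% with BCAS above. The members' median log2 fold change was 0.27, with 9 of 10 above 0, beside a median of -0.01 over all tested genes. The number called stayed at 2 higher and 0 lower under all 18 alternatives.

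**Figure D1:**
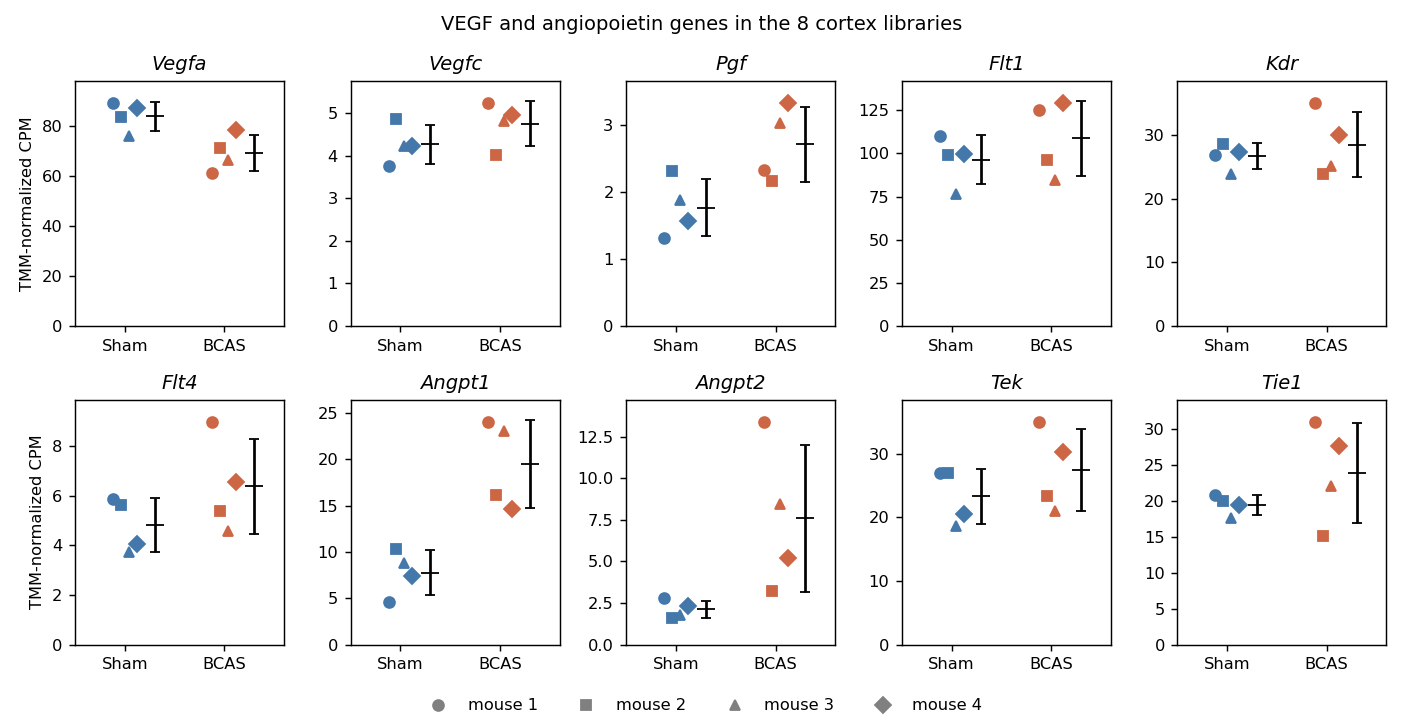
TMM-normalized CPM of each member (y axis, linear from 0, scaled per gene) in the 4 sham (blue) and 4 BCAS (orange) libraries, with the mean and SD of 4 beside the points; symbols give the mouse number within a group, which does not link a sham to a BCAS mouse. Angpt1 and Angpt2 are the panels in which the groups are apart, at 4.60 to 10.4 against 14.6 to 24.05 CPM and at 1.62 to 2.79 against 3.25 to 13.4 CPM.

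Angpt1, the TEK agonist (ENSMUSG00000022309.9, chr15:42424723-42676977 of mm10, minus strand), was measured at 4.60, 10.4, 8.75 and 7.36 CPM in the 4 sham mice. It was at 24.05, 16.2, 23.1 and 14.6 CPM in the BCAS mice. The lowest BCAS mouse lay above the highest sham mouse, and the 2 groups did not overlap. The means were 7.77 ± 2.44 (SD, n = 4) and 19.5 ± 4.78 CPM (SD, n = 4), a 2.51-fold difference in the fit with a log2 fold change of 1.33 (SE 0.26, edgeR adjusted p = 0.00846). Behind these values stood 81 to 166 counts per sham library and 268 to 547 per BCAS library.

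Angpt2, the context-dependent TEK antagonist (ENSMUSG00000031465.6, chr8:18690263-18741562, minus strand), was low in sham cortex, at 2.79, 1.62, 1.77 and 2.29 CPM. Its level in the BCAS mice was 13.4, 3.25, 8.48 and 5.23 CPM. All 4 BCAS mice were above every sham mouse, but BCAS mouse 1 stood far above BCAS mouse 2, which was only slightly higher than the highest sham mouse. The means were 2.12 ± 0.53 and 7.59 ± 4.44 CPM (SD, n = 4 each), and the log2 fold change was 1.84 (SE 0.42, edgeR adjusted p = 0.0146), or 3.58-fold. The sham values rest on only 26 to 49 counts per library. Without BCAS mouse 1 the log2 fold change was 1.42, and the call held.

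The balance of the 2 angiopoietins within a library does not depend on library size. The log2 ratio of Angpt2 to Angpt1 counts was -0.72, -2.65, -2.29 and -1.67 in the sham mice. In the BCAS mice it was -0.84, -2.31, -1.44 and -1.48. Angpt1 had the higher count in all 8 libraries, and the BCAS values lay inside the sham range. The ratio was 0.31 higher in BCAS (means -1.83 ± 0.85 and -1.52 ± 0.60, SD, n = 4 each; exact two-sided permutation p = 0.514 over 70 arrangements, of which the smallest possible p is 0.0286). A change in the ratio was thus not detectable, and leaving out single mice moved the difference between 0.04 and 0.69.

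Among the ligands of the VEGF receptors, Vegfa (ENSMUSG00000023951.17, chr17:46016993-46032369, minus strand) was the only member whose mean was lower in BCAS. The sham values were 89.0, 83.4, 75.8 and 87.0 CPM. Those of the BCAS mice were 61.3, 71.2, 66.2 and 78.2 CPM. BCAS mice 1, 2 and 3 lay below the whole sham range and BCAS mouse 4 lay within it. The log2 fold change was -0.28 (SE 0.09), with an interval at 95% of -0.49 to -0.06, and the edgeR adjusted p of 0.0510 was just over the threshold. Under 7 of 17 other settings the adjusted p was under 0.05, its range over the settings being 0.0265 to 0.149, while the log2 fold change stayed between -0.34 and -0.19.

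Pgf, the ligand that binds FLT1 but not KDR (ENSMUSG00000004791.7, chr12:85166635-85177790, minus strand), had 1.31, 2.31, 1.89 and 1.57 CPM in sham mice. In BCAS mice the values were 2.33, 2.16, 3.03 and 3.32 CPM. BCAS mice 3 and 4 were clearly above every sham mouse, BCAS mouse 1 barely so, and BCAS mouse 2 lay within the sham range. The log2 fold change was 0.61 (SE 0.25, interval 0.04 to 1.19), with an edgeR adjusted p of 0.0887 from 23 to 61 counts per library. Vegfc, the FLT4 ligand (ENSMUSG00000031520.6, chr8:54077606-54187096, plus strand), was at 3.75 to 4.87 CPM in sham and 4.02 to 5.23 CPM in BCAS. Its log2 fold change was 0.16 (SE 0.17, interval -0.22 to 0.53, edgeR adjusted p = 0.485).

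None of the 3 VEGF receptors passed the test, and in each the groups overlapped. Flt1 (ENSMUSG00000029648.13, chr5:147561604-147726011, minus strand) had 110.2, 99.0, 76.5 and 99.8 CPM in sham mice. Its BCAS values were 125.1, 96.2, 84.5 and 129.0 CPM. BCAS mice 1 and 4 were above all sham mice and BCAS mice 2 and 3 within their range, and the log2 fold change was 0.17 (SE 0.16, interval -0.19 to 0.54, edgeR adjusted p = 0.421). Gene counts do not separate the soluble decoy form of FLT1 from the membrane receptor.

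Kdr, the main signaling receptor (ENSMUSG00000062960.10, chr5:75932827-75978458, minus strand), was at 26.9, 28.6, 23.9 and 27.3 CPM in sham mice. In BCAS mice it was at 35.0, 23.9, 25.1 and 29.97 CPM. BCAS mice 1 and 4 were above the sham range and the other 2 within it or at its lower edge, and the log2 fold change of 0.10 (SE 0.13, interval -0.20 to 0.39, edgeR adjusted p = 0.599) became -0.01 without BCAS mouse 1. Flt4 (ENSMUSG00000020357.3, chr11:49609263-49652739, plus strand) ranged from 3.72 to 5.85 CPM in sham and from 4.59 to 8.97 CPM in BCAS. Its log2 fold change was 0.41 (SE 0.25, interval -0.16 to 0.98, edgeR adjusted p = 0.234).

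The TIE receptors were not called either. Tek (ENSMUSG00000006386.15, chr4:94739289-94874976, plus strand) was at 26.9, 27.0, 18.7 and 20.5 CPM in sham mice and at 35.0, 23.3, 20.9 and 30.2 CPM in BCAS mice. Tie1 (ENSMUSG00000033191.14, chr4:118471191-118490061, minus strand) was at 20.9, 19.97, 17.6 and 19.4 CPM in sham mice and at 31.0, 15.1, 22.1 and 27.6 CPM in BCAS mice. BCAS mouse 1 was the highest of the 8 for both genes, whereas BCAS mouse 2 lay inside the sham range for Tek and below it for Tie1. The log2 fold changes were 0.23 for Tek (SE 0.19, edgeR adjusted p = 0.360) and 0.30 for Tie1 (SE 0.20, edgeR adjusted p = 0.267). For Tie1 the adjusted p was 0.0132 without BCAS mouse 2, at a log2 fold change of 0.48.

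**Figure D2:**
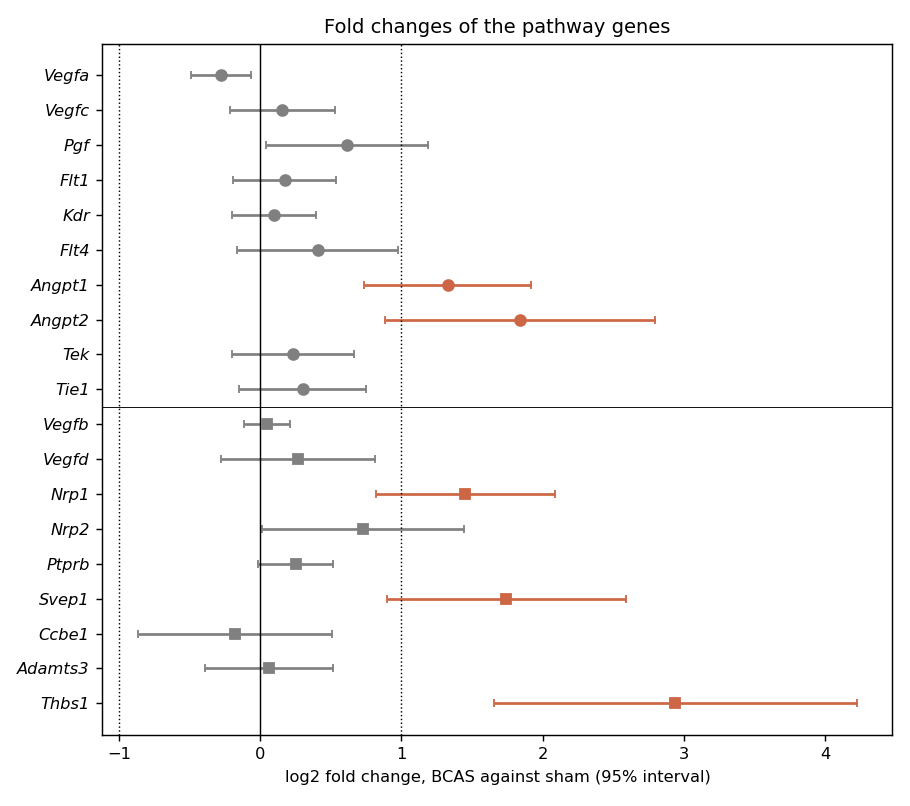
Log2 fold change, BCAS against sham, with its 95% interval (x axis) for the 10 members (circles) and 9 other tested ligands, co-receptors and modulators (squares); orange marks called genes and dotted lines a log2 fold change of 1 in either direction. Angpt1, Angpt2, Nrp1, Svep1 and Thbs1 are the genes called, all higher in BCAS, and the interval of Vegfa lies below 0.

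Per kb of exon length, the sham cortex held much more Vegfa RNA than RNA of any other member, at 19.6 ± 1.35 CPM per kb (SD, n = 4). The receptors Flt1 (7.14 ± 1.05), Tek (4.94 ± 0.92), Tie1 (3.96 ± 0.28) and Kdr (2.95 ± 0.22 CPM per kb) followed. Of these neighbours, Flt1 and Tek overlapped in their ranges, as did Tek and Tie1. Vegfc (1.74 ± 0.19) and Angpt1 (1.49 ± 0.47 CPM per kb) came next with overlapping ranges. Pgf, Flt4 and Angpt2 were lowest, at 0.61, 0.58 and 0.57 CPM per kb, and did not differ beyond their spread. In BCAS cortex Angpt1 was at 3.74 ± 0.92 CPM per kb, with a range that overlapped those of its neighbours Tie1 and Kdr. Angpt2 was at 2.06 ± 1.203 CPM per kb, with a range that overlapped those of its neighbours Kdr and Vegfc. The exon length is the union over all isoforms, so these levels are approximate.

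Since most receptors of the pathway mark endothelial cells, each member was also set against 16 endothelial markers in the same library. The markers summed to 448.4 to 549.2 CPM in sham and 548.3 to 907.2 CPM in BCAS, 1 of 16 was called (Vwf, a coagulation factor of endothelial granules, log2 fold change 1.68, edgeR adjusted p = 0.00370) and 15 of 16 had a fold change above 0. By adjusted p alone 5 of the 16 were higher and 0 lower, beside 19.2% and 12.8% of all tested genes. In bulk tissue, more cells of a type and more RNA per cell cannot be told apart. Relative to the mean log2 level of these markers, Angpt1 was higher in BCAS by 0.92 and Angpt2 by 1.24 (log2 difference), with no overlap between groups (exact permutation p = 0.0286 each, the smallest that 70 arrangements allow). Vegfa was lower by 0.71 and Kdr by 0.35 on the same relative scale, also without overlap (exact permutation p = 0.0286 each). The mean log2 level of the 16 markers was itself 0.43 higher in BCAS (exact permutation p = 0.0571), and the relative values include that rise. Not set against the markers, the log2 fold change was -0.28 for Vegfa and 0.10 for Kdr, and the groups overlapped for both. With all 16 markers as reference the other 6 members overlapped, with relative log2 differences from -0.28 for Vegfc to 0.19 for Pgf. After adjustment over the 10 relative levels tested, none of these p-values was under 0.05, the lowest being 0.0714, but with 4 mice a group that would have needed at least 6 members at the smallest possible p. When Pecam1, Cdh5 and Erg alone served as the endothelial reference, the relative differences were 0.80 for Angpt1 (exact permutation p = 0.0571, groups overlapping) and 1.117 for Angpt2 (exact permutation p = 0.0286). This smaller reference was itself 0.55 higher in BCAS (exact permutation p = 0.0857). With that reference Vegfa (-0.83), Kdr (-0.47) and also Tie1 (-0.30) were lower in BCAS without overlap (exact permutation p = 0.0286 each), the other 5 members overlapped, and no p adjusted over the 10 was under 0.0714.

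**Figure D3:**
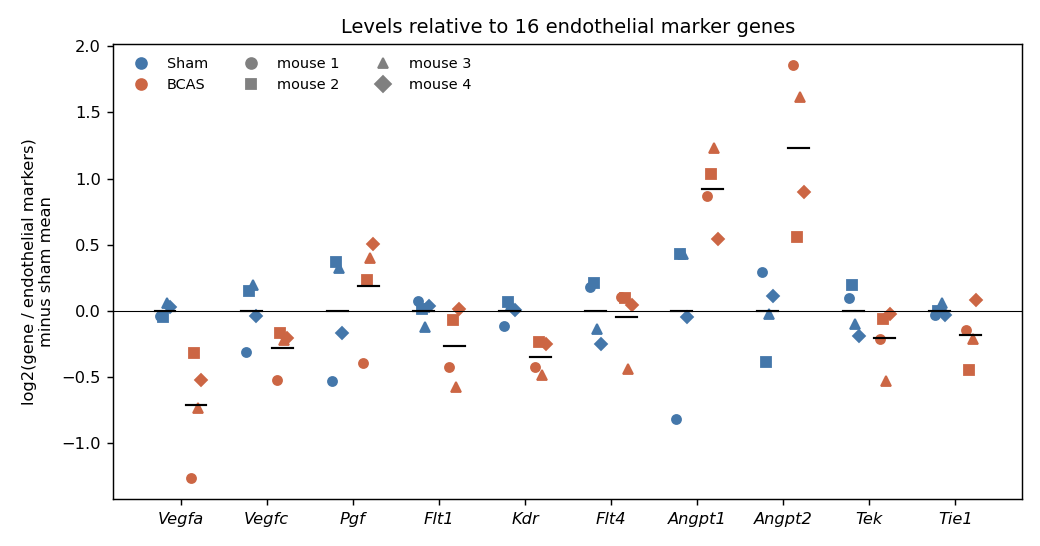
Log2 level of each member minus the mean log2 level of 16 endothelial markers in the same library, centered on the sham mean (y axis), for 4 sham (blue) and 4 BCAS (orange) mice, with group means as bars. All BCAS points of Angpt1 and Angpt2 lie above the sham points, and all those of Vegfa and Kdr lie below them.

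Markers of other cells that make or meet angiopoietins are given beside these values. Pericyte and smooth muscle markers summed to 351.4 to 418.0 CPM in sham and 435.4 to 709.3 CPM in BCAS. Of 10 tested, 2 rose, beside 11.0% of all tested genes. They were the proteoglycan gene Cspg4 (log2 fold change 1.25, edgeR adjusted p = 0.00331) and the peptidase gene Anpep (2.24, edgeR adjusted p = 0.0149). By adjusted p alone 6 of the 10 were higher and 0 lower, beside 19.2% and 12.8% of all tested genes. Rgs5 (0.03, edgeR adjusted p = 0.840), Acta2 (0.20, edgeR adjusted p = 0.754) and Myh11 (0.10, edgeR adjusted p = 0.862) were among those not called. All 5 fibroblast and meningeal markers rose, with the smallest p-values for the matrix genes Col3a1 (log2 fold change 4.402, edgeR adjusted p = 0.00347) and Dcn (2.74, edgeR adjusted p = 0.00437), and summed to 51.7 to 73.3 CPM in sham and 135.3 to 869.0 CPM in BCAS. Astrocyte markers, of which 2 of 9 rose (Gfap, 3.90, and the water channel gene Aqp4, 1.65), summed to 5291 to 6150 and 6986 to 9999 CPM. Of 7 blood-borne cell markers, which summed to 0.91 to 1.72 CPM in sham and 4.17 to 107.1 CPM in BCAS, only 3 passed the filter on low counts, through the BCAS libraries in which they were high, so that their calls as higher say little beyond the filter; among them were Ly6c2 (0 to 0.17 CPM in sham, 0.72 to 20.4 CPM in BCAS) and Ms4a4b (0.06 to 0.29 and 0.62 to 26.1 CPM). Of the untested neutrophil genes, S100a8 was at 0 to 0.34 CPM in sham and 0.26 to 3.73 CPM in BCAS, S100a9 at 0 to 0.34 and 0.36 to 5.29 CPM, and Ly6g at 0 in every library.

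Within the BCAS group the mice fell into the order 1, 3, 4, 2, from high to low, for Angpt2. The same order held for the summed microglia, fibroblast, blood-borne cell, lymphatic and oligodendrocyte markers. It also held for the summed lists of other ligands, tip cell genes and hypoxia genes described after them, whereas the summed signaling list had the order 2, 3, 1, 4. The oligodendrocyte sums of mice 3 and 4 were practically equal (6951 and 6949 CPM). By mean log2 level in place of the sum, lymphatic markers were highest in mouse 3 and lowest in mouse 1, and the signaling list had the order 1, 3, 4, 2. The order was thus not particular to Angpt2, and its share over all tested genes was not counted. For Angpt1 the order was 1, 3, 2, 4. Kdr, Tie1 and Vegfc, like the endothelial, pericyte and astrocyte markers, had the order 1, 4, 3, 2. Tek and Flt4 had the order 1, 4, 2, 3, Flt1 4, 1, 2, 3 and Pgf 4, 3, 1, 2. Vegfa had the order 4, 2, 3, 1, beside 2, 3, 4, 1 for the neuronal markers, so that both were lowest in mouse 1 but highest in different mice. The part of cell makeup in these levels was not tested. Of 5 markers of lymphatic vessels, the classical site of Flt4, Pdpn (log2 fold change 2.14, edgeR adjusted p = 0.00305) and Lyve1 (1.32, edgeR adjusted p = 0.0441) rose. Prox1, the lymphatic transcription factor, was at 20.1 to 23.96 CPM in sham and 24.9 to 29.5 CPM in BCAS, without overlap (0.27, edgeR adjusted p = 0.0572), Mmrn1 failed the filter, and Ccl21a was at 0 in all libraries. Pdpn, Lyve1 and Prox1 are also made by other brain or meningeal cells.

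**Figure D4:**
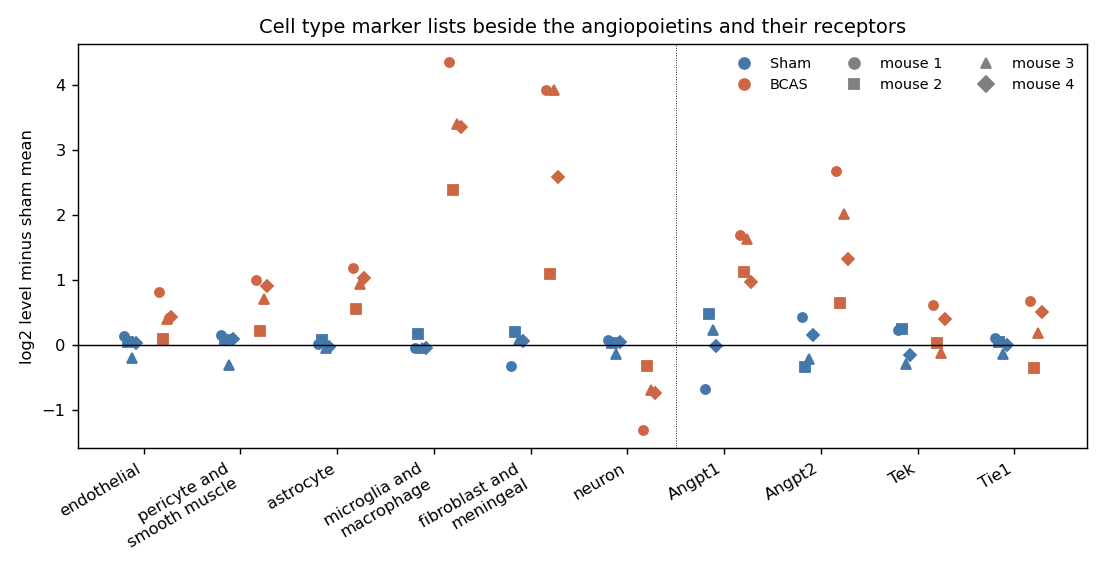
Log2 level minus the sham mean (y axis) of 6 cell type marker lists (mean over each list) and of Angpt1, Angpt2, Tek and Tie1, by mouse, with sham in blue and BCAS in orange. Microglial and fibroblast markers lie far above the sham points in BCAS and neuronal markers below them, while the endothelial points and those of Tek and Tie1 lie closer to the sham points.

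Beyond the 10 members, 9 of 10 other ligands, co-receptors and modulators of the pathway were tested, and 3 of them rose and none fell (median log2 fold change 0.27). Nrp1, the co-receptor that strengthens VEGF-A binding to KDR, was at 23.1, 22.6, 22.8 and 22.6 CPM in sham mice and at 94.95, 32.4, 71.6 and 50.1 CPM in BCAS mice. The sham mice were almost identical and every BCAS mouse was above them (log2 fold change 1.45, SE 0.28, edgeR adjusted p = 0.00799). NRP1 is also made by myeloid cells and neurons, and the part of cell makeup in its level was not tested.

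Thbs1, whose product thrombospondin-1 restrains vessel growth, was at 2.44, 4.74, 7.55 and 3.92 CPM in sham mice and at 41.7, 7.42, 52.2 and 42.1 CPM in BCAS mice. BCAS mouse 2 was within the sham range, and the other 3 were far above it (log2 fold change 2.94, SE 0.57, edgeR adjusted p = 0.00794). Svep1, an extracellular matrix gene whose product binds angiopoietins and TIE1, was at 1.42 to 2.72 CPM in sham and 3.71 to 10.99 CPM in BCAS (log2 fold change 1.74, edgeR adjusted p = 0.0116).

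Vegfb had practically one level in all mice, 60.8 to 68.5 CPM in sham and 64.3 to 70.5 CPM in BCAS (log2 fold change 0.05, interval -0.11 to 0.21, edgeR adjusted p = 0.611). The lymphatic ligand Vegfd (0.27, edgeR adjusted p = 0.410) and the endothelial phosphatase Ptprb, which acts on TEK (0.25, edgeR adjusted p = 0.123), were not called. Nrp2 had a log2 fold change of 0.73 (edgeR adjusted p = 0.103), with sham mouse 3 at 92.3 CPM, above all BCAS mice, and the other sham mice at 30 to 44.7 CPM. Sham mouse 3 also had a summed choroid plexus marker level of 732.8 CPM, beside 13.0 to 59.6 CPM in the other 7 mice, and the part of this in Nrp2 was not tested. Angpt4 had 1 to 6 counts per sham library and 2 to 24 per BCAS library and was not tested.

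Downstream of the receptors, 5 of 34 tested signaling genes rose and none fell (median log2 fold change 0.09). Led by p-value, these were Plcg2, a phospholipase found mostly in blood and microglial cells (log2 fold change 3.09, edgeR adjusted p = 0.00198), and Mapkapk2, a kinase downstream of p38 (1.32, edgeR adjusted p = 0.00502). With adjusted p alone, 8 were higher and 5 lower, beside 19.2% and 12.8% of all tested genes. Plcg1, the phospholipase that KDR uses in endothelial cells, had a log2 fold change of -0.05 (edgeR adjusted p = 0.646).

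Of 14 tested tip cell and Notch sprouting genes, 2 rose and none fell (median log2 fold change 0.58), and by adjusted p alone 6 were higher and none lower, beside 19.2% and 12.8% of all tested genes. These were the urokinase receptor gene Plaur (2.93, edgeR adjusted p = 0.00279) and the chemokine receptor gene Cxcr4 (3.47, edgeR adjusted p = 0.00343), both also expressed by myeloid cells. The other 4 past the adjusted p alone were the pericyte-recruiting growth factor gene Pdgfb (0.77, edgeR adjusted p = 0.00883), the Notch receptor genes Notch1 (0.65, edgeR adjusted p = 0.0116) and Notch4 (0.91, edgeR adjusted p = 0.0220), and the Notch ligand gene Jag1 (0.65, edgeR adjusted p = 0.0218). The Notch ligand gene Dll4, a VEGF target in tip cells, was at 4.49 to 5.37 CPM in sham and 5.10 to 8.48 CPM in BCAS (0.53, edgeR adjusted p = 0.0570). The tip cell gene Esm1 lay between 0.31 and 1.14 CPM over all mice (0.15, edgeR adjusted p = 0.817). Of the 14 genes, 10 had a fold change above 0. Below it were Hey1 (-0.15, edgeR adjusted p = 0.130), Hes1 (-0.15, edgeR adjusted p = 0.411), Apln (-0.14, edgeR adjusted p = 0.688) and Cd34 (-0.06, edgeR adjusted p = 0.81).

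Vegfa is a textbook target of hypoxia-inducible factors, so the factors and their other targets were examined. Of 15 such genes 2 rose and none fell, a share near the 11.0% of all tested genes that rose (median log2 fold change 0.20), namely Hif1a, at 93.8 to 107.0 CPM in sham and 141.0 to 337.6 CPM in BCAS (1.13, edgeR adjusted p = 0.00911), and the vasodilator peptide gene Adm, at 1.27 to 2.002 CPM and 2.47 to 4.75 CPM (1.19, edgeR adjusted p = 0.0131). With adjusted p alone, 4 were higher and 1 lower, beside 19.2% and 12.8% of all tested genes. The 1 lower was Pgk1 (-0.33, edgeR adjusted p = 0.0288). Bnip3 (-0.41, edgeR adjusted p = 0.0691) and Ldha (-0.20, edgeR adjusted p = 0.155) also had fold changes below 0, and 10 of the 15 genes had one above 0.

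Genes with the pattern most like the called members were sought by Pearson's r of log2 CPM over the 8 libraries among the 12438 genes that averaged 100 counts or more per library. Closest to Angpt1 were Ccdc115 (r = 0.98), Tsen54 (r = 0.98) and Fzd8 (r = 0.97), with log2 fold changes of 0.26, 0.50 and 0.60. Angpt2 was tracked more tightly, by the Janus kinase gene Tyk2 (r = 0.9968), the ISG15-conjugating enzyme gene Ube2l6 (r = 0.9955) and Myo9b (r = 0.9945), with log2 fold changes of 0.87, 1.98 and 1.08. The 8 points share the 2 groups, so these values describe the libraries.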

How the data were processed

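The authors isolated total RNA from 1 right cortex per library with TRIzol, prepared paired-end libraries with a NEBNext Ultra kit, trimmed reads with Trim Galore, aligned them with HISAT2 to mm10, sorted them with SAMtools 1.9 and deposited raw counts of reads per gene for each library. The file headers give featureCounts 2.0.1 with GENCODE M20 exons and no strand option, and the submitters' notes name version 1.6.3. Symbols were matched by gene ID to GENCODE M21 (54723 of 54752 IDs).

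Genes passing edgeR's filterByExpr (minimum count 10, minimum total 15) were fitted over all 8 libraries with TMM and the quasi-likelihood F-test (edgeR 4.0.16, R 4.3.3), after tests on simulated data, without covariates. Calls used the study's thresholds. Single values were compared with exact two-sided permutation tests. Depth was 16759364 to 21794435 counts, and intervals come from the fit. Other scalings, filters, tools (DESeq2 1.42.0, limma 3.58.1), a replicate block and leaving out each mouse were tried. The members and gene lists were chosen with earlier results of these data known. All 10 members were named; of each list, the 2 called genes with the smallest p in each direction, and 6 direct pathway genes (Nrp1, Nrp2, Vegfb, Vegfd, Angpt4, Ptprb), were named, and for called members the 3 genes with the highest correlation. Svep1, Plcg1, Dll4, Esm1, Pdgfb, Notch1, Notch4, Jag1, Hey1, Hes1, Apln, Cd34, Pgk1, Bnip3, Ldha, Rgs5, Acta2, Myh11, Prox1, Mmrn1, Ccl21a, S100a8, S100a9 and Ly6g were named after their values were seen.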

Additional observations from a re-analysis of the deposited data

How the results depend on the processing

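Under the other scalings, filters and tools and with single mice left out, Angpt1 and Angpt2 kept their call and no other member gained one; the log2 fold change ranged from 1.13 to 1.49 for Angpt1 (adjusted p 2.83e-05 to 0.0332) and from 1.33 to 2.11 for Angpt2 (adjusted p 0.000224 to 0.0490). The fold change of Kdr changed sign only without BCAS mouse 1 (-0.0061), and leaving out the other mice gave up to 0.1847. With adjusted p alone as the rule, 5490 genes of the whole table passed in place of 2097, and the members that passed were still 2. Leaving out 1 mouse at a time gave 1644 to 2967 called genes, and the number called lower, 220 with all mice, ranged from 86 (without sham mouse 1) to 559 (without BCAS mouse 2). The Angpt2 to Angpt1 difference ranged from 0.04 to 0.69. Library size without scaling moved the median of all genes by 0.089 (log2). Replicate numbers of the labels did not pair the mice: same-numbered mice had correlations of deviations between -0.099 and 0.002, and none correlated best with its own number. With the replicate block 1809 genes were called in place of 2097, Angpt1 and Angpt2 among them (adjusted p 0.0303 and 0.0193). With 23 to 61 counts per library for Pgf and 26 to 49 per sham library for Angpt2, counting error widens the intervals of these genes.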
